A study of Metroxylon sagu with 6 samples.

Results

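The enzymes that carry p-coumaroyl-CoA to the monolignols, the alcohols from which lignin is built, were followed in sago palm (*Metroxylon sagu*) leaf through 159 of the 99933 Unigenes listed in at least 1 of the 6 libraries. Each Unigene is a sequence put together from the reads alone, without a genome. The members were chosen by the name of their best Swiss-Prot match, which had to be that of 1 of 8 enzymes, and no measured level entered the choice. The enzymes described here are 7 of these. Of the 159 Unigenes, 3 were matched to shikimate O-hydroxycinnamoyltransferase (HCT), 5 to cytochrome P450 98A (C3'H), 30 to caffeoylshikimate esterase (CSE), 2 to caffeoyl-CoA O-methyltransferase (CCoAOMT), 8 to cytochrome P450 84A (F5H), 46 to cinnamoyl-CoA reductase (CCR) and 59 to cinnamyl alcohol dehydrogenase (CAD).

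Leaf tissue was taken from 3 trunking palms (ST1, ST4 and ST5), which served as the control, and from 3 non-trunking palms (SN7, SN8 and SN9), the palms that fail to form a trunk. The labels give no cultivar, age or treatment; all the palms grew on the peat soil of 1 plantation, and RNA was extracted with CTAB and sequenced on the BGISEQ-500 platform, 1 library a palm. The positions given in the study place the trunking palms together at one spot and the non-trunking palms together at another, so phenotype and place cannot be told apart. The libraries held 17927176 to 18492907 expected counts, and the members took 0.226% to 0.262% of them in trunking and 0.272% to 0.385% in non-trunking palms.

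In the textbook pathway HCT couples p-coumaroyl-CoA to shikimate, C3'H hydroxylates the ester at the ring, and the caffeoyl group is returned to CoA by HCT or set free by CSE. CCoAOMT adds the methyl group that leads to guaiacyl units, F5H adds the further hydroxyl group that leads to syringyl units, and CCR and CAD reduce the CoA ester to an aldehyde and the aldehyde to an alcohol. The alcohols are joined into lignin in the walls of xylem and fibres, and in grasses and palms much of a leaf's lignin lies in its vascular bundles and fibre strands.

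Many of the members were contigs of a shared cluster, and without a genome it cannot be told whether such contigs belong to the same gene. The 159 Unigenes came from 96 clusters or single sequences, with 97 of them contigs of a cluster with more than 1 contig. Their lengths ran from 202 to 3244 nt with a median of 1095 nt. Contigs of a cluster are alike in sequence, and the estimated counts of such contigs can be shifted between them, so single contigs are read below beside the sum of their cluster. Names such as CL260.Contig4 give the cluster and the contig, and the ending _All, which the Unigene names carry in the files, is left out. A best match in the protein database Nr fell on oil palm or date palm for 110 members, and 125 members also carried the KEGG orthology number (KO) of their own enzyme.

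Expected counts of the groups were compared in a quasi-likelihood fit of edgeR, tested on both sides, over all Unigenes that passed a filter on low counts. This left 108 of the 159 members and 45928 Unigenes in all. The 51 members left out were short and rare, with a median length of 363 nt against 1387.5 nt for those tested, and none of them exceeded an FPKM of 8.12 in any library. Changes are log2 fold changes of non-trunking minus trunking palms, with a standard error (SE), and levels of single Unigenes are CPM, the count as a share of the library total after TMM scaling, unless FPKM, which is also scaled by length, is named. Values of single palms are given in the order ST1, ST4 and ST5, then SN7, SN8 and SN9. In leaf tissue taken whole, fewer cells of a type and less RNA per cell cannot be told apart.

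Adjusted over the whole table, edgeR's p stayed above 0.05 for every member and every other Unigene (0% of 45928 called), and the smallest was 0.161. The members are therefore described by an unadjusted p under 0.05, which 35 of the 108 had, against 9.85% of all Unigenes tested. Of these, 29 members from 21 clusters were higher in non-trunking palms, or 26.9% of the members tested, where the share over all Unigenes was 5.43%. Among the 29 are 2 that passed the filter only through the non-trunking palms, and without them 27 of 106 (25.5%) were higher. Another 6 members from 4 clusters were lower, or 5.56%, where the share over all Unigenes was 4.43%. The other 73 tested members had no such p. DESeq2 on the same counts gave 19 members an adjusted p under 0.05, 18 of them higher, where it called 1.17% of all Unigenes higher and 1.05% lower.

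The groups of palms did not overlap for 37 members (34.3% of those tested, against 17.3% of all Unigenes). All non-trunking palms lay above all trunking palms for 33 members, where 8.71% of all Unigenes did, and below them for 4, where 8.55% did. With 3 palms against 3, an exact permutation test allows no p below 0.1. The median log2 fold change of the tested members was 0.49, against 0.02 over all Unigenes, and 80 of the 108 were above 0. Of the 29 higher members, 22 kept an unadjusted p under 0.05 whichever palm was left out, and the palms whose loss ended it are named below for 6 of the other 7. Of the 6 lower members 0 kept it throughout. The count of lower members was 3 without ST4 and 3 without SN7. When counts were summed over all contigs of a cluster before the fit, 16 of 61 member clusters were higher and 3 lower at an unadjusted p under 0.05, against 6.07% and 4.92% of all clusters, and again 0 had an adjusted p under 0.05 (0% of 25629).

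**Figure D1:**
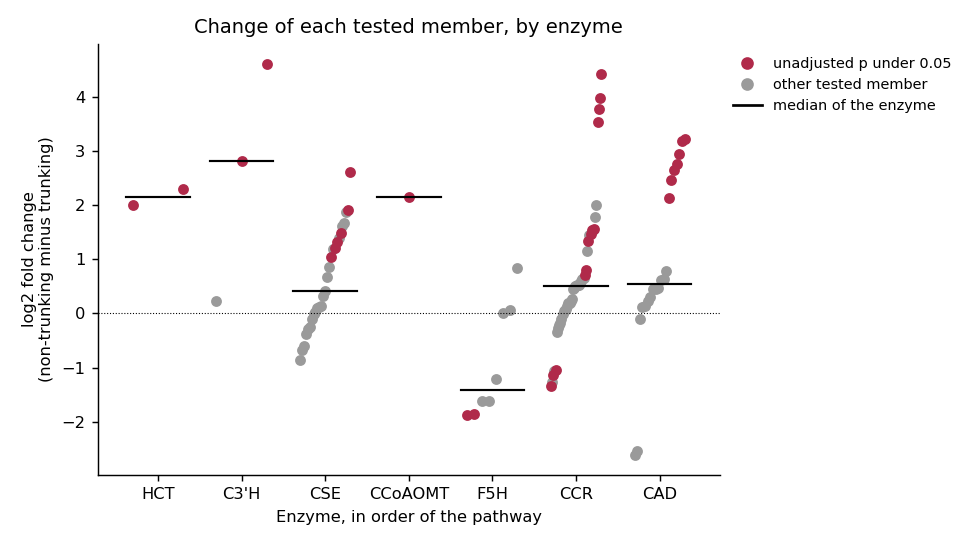
Change of 105 tested members by enzyme, in the order of the text, which is not in every case that of the steps. The y axis is the log2 fold change of non-trunking minus trunking palms. Red points have an unadjusted p under 0.05 in edgeR's test, and the bar is the enzyme's median. F5H, with a median of -1.42, holds no red point above 0, and the C3'H median of 2.81 rests on 3 points and is 1.52 without Unigene20574, which passed the filter only through the non-trunking palms.

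Summed over its members, each enzyme had a level in FPKM that can be set against the other enzymes. CAD and CCR had the highest sums. On average CCR led in trunking palms, with 469 ± 11 against 427 ± 54.7 for CAD (SD, n = 3), a gap within the spread of CAD, and CAD led in non-trunking palms, with 1011 ± 66.1 against 621 ± 126. Among members chosen by name, HCT and CCoAOMT were the lowest of the enzymes described in trunking palms, with sums of 5.32 ± 0.72 and 11 ± 5.37. The sums of HCT, C3'H, CCoAOMT, CCR and CAD were higher in every non-trunking palm than in any trunking palm, and those of CSE and F5H overlapped between the groups. FPKM is not TMM-scaled, and the gap between ST1 and SN7 was narrow for C3'H (148.97 and 154.97) and CCR (478.87 and 485.79). In TMM-scaled CPM the sum of CL4589, the cluster with most of the C3'H signal, overlapped (303 in ST1, 291 in SN9).

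**Figure D2:**
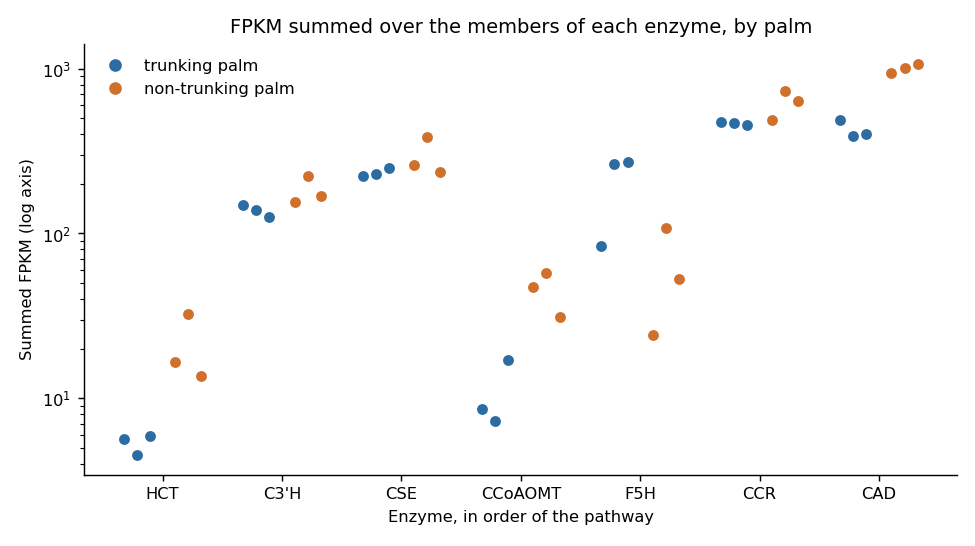
FPKM summed over the members of each enzyme, 1 point a palm, on a log axis. CAD lies at 391 to 489.6 in trunking and 945 to 1077 in non-trunking palms without overlap, while F5H lies at 83.7 to 273 and 24.1 to 108 and overlaps.

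The entry enzyme HCT was represented by 2 contigs of cluster CL260 and a fragment. CL260.Contig4, the longer of the pair, stood at 5.63, 3.97 and 4.78 CPM in trunking palms and at 18.8, 28.9 and 9.63 CPM in non-trunking palms. All 3 non-trunking palms lay above all trunking palms, with SN8 highest and SN9 lowest among them. Its log2 fold change was 1.99 (SE 0.42, edgeR adjusted p = 0.234). CL260.Contig5 stood at 2.79, 2.59 and 3.46 CPM in trunking and 12.6, 21.0 and 9.72 CPM in non-trunking palms, again without overlap and with a log2 fold change of 2.29 (SE 0.35, edgeR adjusted p = 0.185). The other 4 contigs of CL260 were matched to hydroxycinnamoyltransferase 1 and are not members. Their log2 fold changes were -1.98, 0.15, -1.45 and -0.98, none with an unadjusted p under 0.05, and the sum of the cluster overlapped between the groups with a log2 fold change of 0.53 (95% interval -0.90 to 1.96, edgeR adjusted p = 0.797). The share of the cluster's counts held by CL260.Contig4 and CL260.Contig5 varied among palms within each group. It was 11.8%, 40.2% and 12.5% in trunking and 33.8%, 48.0% and 40.8% in non-trunking palms for CL260.Contig4, and 5.86%, 26.1% and 9.02% against 22.7%, 34.9% and 41.1% for CL260.Contig5, so that ST4 lay among the non-trunking palms in both. The fragment CL4807.Contig5, of 280 nt, was too rare to be tested and reached at most 1.3 FPKM. Outside the members, 25 Unigenes carried the KO of HCT under other Swiss-Prot names. Their summed FPKM was larger and went the other way, at 205 to 268 in trunking and 160 to 198 in non-trunking palms. Of 19 tested, 2 were higher and 2 lower at an unadjusted p under 0.05, against 5.43% and 4.43% of all Unigenes, with a median log2 fold change of -0.11.

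C3'H hydroxylates p-coumaroyl shikimate, and most of its signal came from a single contig, CL4589.Contig1, with 95.4% to 97.0% of the summed FPKM in trunking palms and 68.7%, 86.3% and 90.6% in SN7, SN8 and SN9. This contig stood at 295, 247 and 244 CPM in trunking and 259.8, 388 and 274 CPM in non-trunking palms. The groups overlapped, since SN7 and SN9 lay below ST1, and the log2 fold change of 0.23 had a 95% interval of -0.42 to 0.88 (edgeR adjusted p = 0.83). The companion contig CL4589.Contig2 was low in trunking palms, at 6.77, 5.29 and 7.97 CPM, and stood at 82.7, 38.6 and 19.7 CPM in non-trunking palms. Here the groups did not overlap and SN7 was highest, with a log2 fold change of 2.81 (SE 0.54, edgeR adjusted p = 0.206). CL4589.Contig2 held 2.25%, 2.09% and 3.15% of the counts of the cluster in trunking palms and 24.2%, 9.06% and 6.70% in non-trunking palms, while the cluster sum had a log2 fold change of 0.40 (95% interval -0.16 to 0.95). A short C3'H sequence of 320 nt, Unigene20574, had only 2, 0 and 2 counts in trunking palms and 56, 29 and 11 in non-trunking palms. Its fitted log2 fold change of 4.61 (95% interval 2.0 to 7.23) rests on these few counts, and it passed the filter only through the non-trunking palms, as did 1 CCR member described below.

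**Figure D3:**
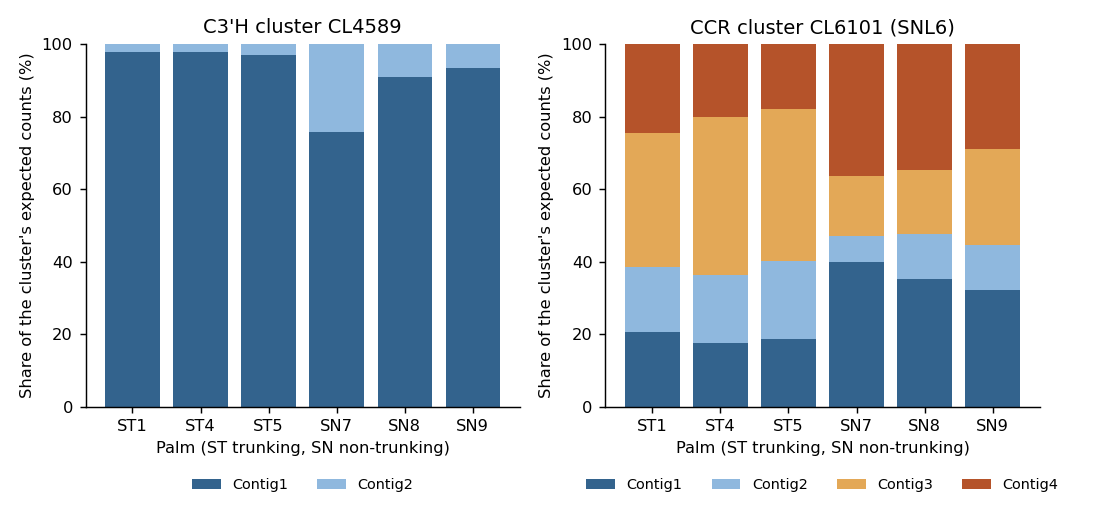
Share of a cluster's expected counts held by each contig, in percent, 1 bar a palm, for the C3'H cluster CL4589 and the CCR cluster CL6101. CL4589.Contig2 is at most 3.15% in trunking palms and at least 6.70% in non-trunking palms, and CL6101.Contig1 at most 20.4% and at least 32.2%.

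CSE frees caffeic acid from its shikimate ester, and here the name covered unlike sequences. Of the 30 members, 4 carried the KO of CSE and 26 another, mostly that of monoglyceride lipase. In the test of 27, 6 were higher and 0 lower, against 5.43% and 4.43% of all Unigenes, with a median log2 fold change of 0.42. The summed FPKM of the 4 was 13.0, 10.2 and 25.2 in trunking palms and 55.5, 91.1 and 31.4 in non-trunking palms. In this sum every non-trunking palm lay above every trunking palm. Singly, 2 of the 4 did so and were higher at an unadjusted p under 0.05, and the other 2, CL9550.Contig3 and Unigene10361, overlapped between the groups. Over the other members that were tested the median log2 fold change was 0.14.

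The 4 CSE sequences in question included the contigs of cluster CL9550, whose sum was higher with a log2 fold change of 2.13 (SE 0.54, edgeR adjusted p = 0.256). CL9550.Contig2 stood at 6.32, 5.34 and 9.35 CPM in trunking and 17.6, 96.8 and 13.8 CPM in non-trunking palms. SN8 stood far above the rest. The log2 fold change was 2.61 with all palms (SE 0.79, edgeR adjusted p = 0.381) and 1.16 without SN8. CL9550.Contig1 stood at 3.19, 2.24 and 6.38 CPM against 16.3, 6.59 and 6.66 CPM, with SN7 highest this time and a log2 fold change of 1.32. Its unadjusted p was over 0.05 without ST1, ST4 or SN7, at 1.19, 1.03 and 0.75. The CSE members of highest level were not among them. CL4453.Contig3 stood at 181, 135 and 148 CPM in trunking and 93.1, 206 and 92.9 CPM in non-trunking palms, and the groups overlapped with a log2 fold change of -0.25 (95% interval -1.14 to 0.65). CL9839.Contig2 had a log2 fold change of 0.42 (95% interval -0.18 to 1.03).

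The other CSE members with an unadjusted p under 0.05 carried the monoglyceride lipase KO. CL523.Contig3 stood at 19.3, 13.2 and 14.3 CPM against 34.1, 36.9 and 25.2 CPM, with a log2 fold change of 1.04 (SE 0.24, edgeR adjusted p = 0.273). Unigene9553 stood at 15.6, 11 and 10.6 CPM against 24.5, 39.2 and 22.3 CPM, with a log2 fold change of 1.21. In both the groups did not overlap, but the sum of cluster CL523, with its further contigs, gave -0.027. The rarer CL1328.Contig1 (1.31 for the sum of its cluster) and Unigene8016 had log2 fold changes of 1.49 and 1.91, at mean levels of 3.07 and 1.26 CPM in non-trunking palms. Unigene8016 had an unadjusted p over 0.05 without ST4, ST5 or SN8, at 1.56 to 1.69.

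CCoAOMT, the methyltransferase on the way to guaiacyl units, had 1 tested member. CL10313.Contig1 stood at 14.3, 11.5 and 29.6 CPM in trunking and at 100.1, 99.6 and 48.0 CPM in non-trunking palms. The groups did not overlap, with SN9 the lowest of the non-trunking and ST5 the highest of the trunking palms. The log2 fold change was 2.16 (SE 0.47, edgeR adjusted p = 0.243), and 1.90 to 2.67 as each palm was left out. Its best Nr match was strawberry (*Fragaria vesca*), not a palm. The fragment Unigene38299, of 250 nt, was at or below 0.59 FPKM in every palm and was not tested.

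F5H, the hydroxylase that commits the pathway to syringyl units, was the enzyme with a negative median, -1.42 over its 8 tested members. Of these 0 were higher and 2 lower, against 5.43% and 4.43% of all Unigenes. CL989.Contig2 stood at 87.1, 227 and 296 CPM in trunking palms and at 24.4, 102 and 39.9 CPM in non-trunking palms. The groups overlapped, since ST1 was lower than SN8, and the spread within each group was wide. Its log2 fold change was -1.88 (SE 0.66, edgeR adjusted p = 0.438). CL989.Contig1 followed the same palms, at 84.4, 249.8 and 293 CPM against 22.6, 107 and 43 CPM, with a log2 fold change of -1.86 (SE 0.69, edgeR adjusted p = 0.452). These are contigs of 1 cluster and count as a single observation, and the cluster sum gave -1.86 as well. Neither kept an unadjusted p under 0.05 without ST4, ST5, SN7 or SN9, with log2 fold changes of -1.48 to -1.79 in those fits. The next member by level, CL10342.Contig1, was near 2 CPM in both groups with a log2 fold change of 0.00 (95% interval -1.02 to 1.03), and its sign changed with the scaling used.

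**Figure D4:**
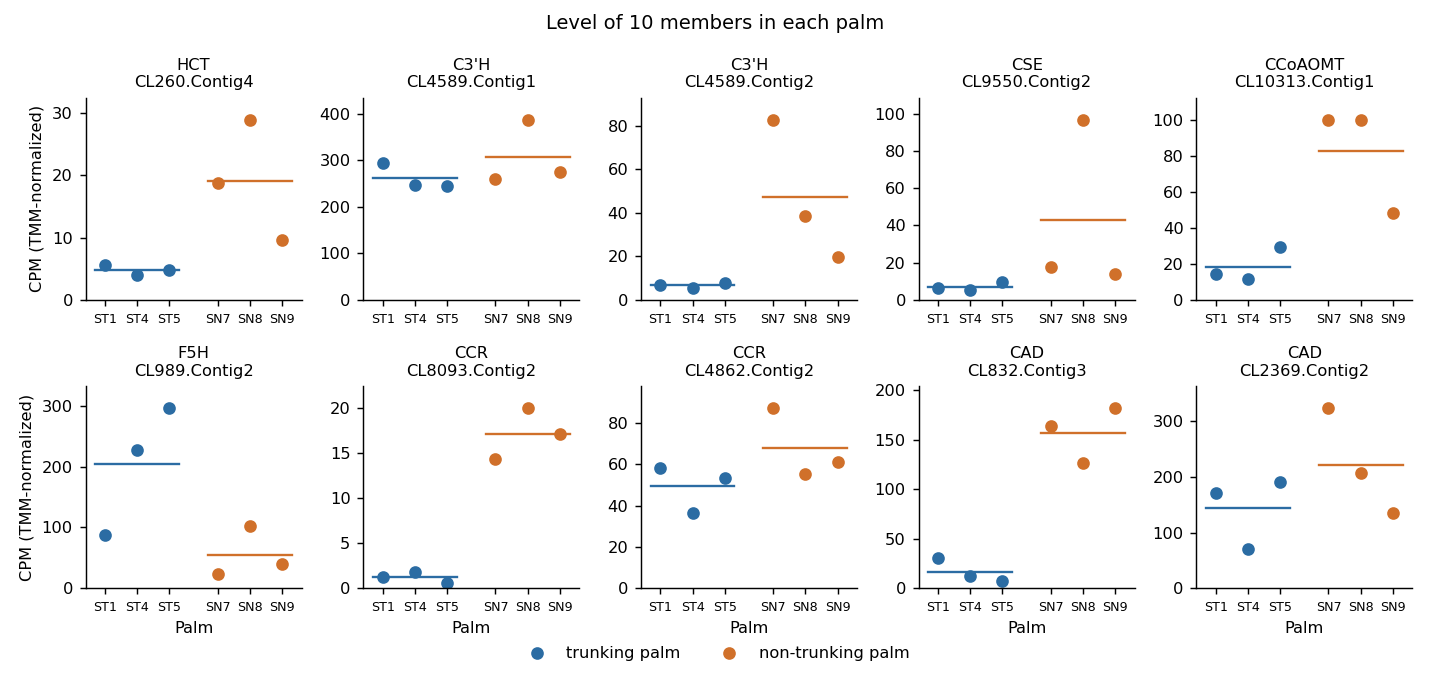
Level of 10 members in each palm, in TMM-scaled CPM on linear axes that start at 0; points are palms and bars are group means. In CL8093.Contig2 and CL832.Contig3 the non-trunking palms lie far above the trunking palms, and F5H CL989.Contig2 overlaps because ST1 (87.1 CPM) is below SN8 (102 CPM).

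CCR, the first reductive step into lignin, had 46 members, 44 of them tested with a median log2 fold change of 0.51. Of the 44, 10 were higher and 3 lower, against 5.43% and 4.43% of all Unigenes. Their best matches were CCR1 of *Arabidopsis thaliana* for 38 and SNL6 of rice, a CCR-like protein known from disease resistance, for 8. Only 3 of the 38 matched CCR1 with an E-value under 1e-100, and these were rare in trunking palms. CL8093.Contig2 stood at 1.31, 1.83 and 0.605 CPM in trunking and 14.4, 20 and 17.1 CPM in non-trunking palms. It had a log2 fold change of 3.77 and the smallest adjusted p of the table. CL8093.Contig1 of the same cluster stood at 1.25, 0.509 and 0.385 CPM against 6.79, 11.1 and 7.06 CPM, with a log2 fold change of 3.53 (SE 0.53, edgeR adjusted p = 0.185). Summed, the cluster had a log2 fold change of 3.69 (SE 0.39) with 0.0891 as its adjusted p in the edgeR fit of clusters. Unigene19802, the third close match, had 3, 0 and 4 counts against 37, 90 and 25, and its log2 fold change of 4.43 (95% interval 2.0 to 6.86) rests on few counts in trunking palms, through which it would not have passed the filter.

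The 35 members with weaker matches to CCR1, whose lowest E-value was 2.6e-79, spread more widely. An E-value also depends on the length of the sequence, and the 2 were not separated here. Of the 33 tested, 6 were higher and 0 lower at an unadjusted p under 0.05, against 5.43% and 4.43% of all Unigenes. The log2 fold changes of the 33 ran from -1.26 to 3.98 with a median of 0.51. The largest was that of Unigene29636, a sequence of 633 nt, which stood at 0.967, 0.865 and 0.110 CPM in trunking and at 9.05, 12.4 and 9.58 CPM in non-trunking palms. Its groups lay far apart with the non-trunking palms close together, at a log2 fold change of 3.98 (SE 0.67, edgeR adjusted p = 0.186). The members of cluster CL449 differed less. CL449.Contig3 stood at 5.86, 12.1 and 9.84 CPM against 26.0, 27.0 and 17.4 CPM (log2 fold change 1.34), CL449.Contig4 had a log2 fold change of 1.46, and the whole cluster 0.74 (SE 0.20, edgeR adjusted p = 0.285). Unigene12952 stood at 10.2, 10.5 and 12.5 CPM against 21.9, 17.4 and 18.8 CPM, a small and even difference of 0.80 on the log2 scale. The short contigs CL2579.Contig1 and CL4862.Contig1 had log2 fold changes of 1.54 and 1.56 at 1.94 and 1.06 CPM on average in non-trunking palms. Neither kept an unadjusted p under 0.05 without ST1, ST5, SN7 or SN8, where their log2 fold changes were 1.08 to 1.62 and 1.27 to 1.60. They held at most 1.42% and 2.55% of the counts of their clusters in any palm, and the cluster sums overlapped between the groups with log2 fold changes of 0.46 (95% interval -0.33 to 1.26) for CL2579 and 0.47 (95% interval -0.16 to 1.11) for CL4862.

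The 3 CCR members of highest FPKM showed no such difference. Unigene28347 stood at 62.0, 39.4 and 77.4 CPM in trunking and 53.4, 159 and 53.0 CPM in non-trunking palms. Only SN8 was outside the range of the trunking palms, and the log2 fold change of 0.57 (95% interval -0.64 to 1.78) was -0.17 without it. CL2579.Contig3 had the same pattern, with a log2 fold change of 0.24 that was -0.19 without SN8, and CL4862.Contig2 had 0.46 (95% interval -0.20 to 1.13). Outside the members, 16 Unigenes carried the KO of CCR under other Swiss-Prot names. Their summed FPKM overlapped between the groups, at 123 to 151 in trunking and 120 to 298 in non-trunking palms. Of 12 tested, 1 was higher and 0 lower at an unadjusted p under 0.05, against 5.43% and 4.43% of all Unigenes.

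The 8 members matched to SNL6 included the 3 lower CCR members and 1 of the higher ones. Over all Unigenes 4.43% were lower and 5.43% higher. The log2 fold changes of the 8 ran from -1.34 to 1.54 with a median of -0.30. In cluster CL6101 the contigs went apart. CL6101.Contig3 stood at 27.8, 35.5 and 24.1 CPM in trunking and at 9.72, 7.98 and 21.8 CPM in non-trunking palms (log2 fold change -1.14), and CL6101.Contig2 at 13.7, 15.3 and 12.3 CPM against 4.13, 5.75 and 10.1 CPM (log2 fold change -1.04). In both all non-trunking palms lay below, with SN9 nearest to the trunking palms. CL6101.Contig1 went the other way, at 15.4, 14.3 and 10.8 CPM against 23.5, 16.2 and 26.5 CPM (log2 fold change 0.71). Its share of the cluster was 20.4%, 17.6% and 18.8% in trunking and 39.9%, 35.2% and 32.2% in non-trunking palms, whereas the cluster sum was level, at a log2 fold change of -0.20 (95% interval -0.82 to 0.43). Unigene11133, a single sequence, stood at 6.71, 10.4 and 4.78 CPM against 1.93, 2.57 and 4.10 CPM (log2 fold change -1.34). None of these 4 sequences kept an unadjusted p under 0.05 throughout. It was over 0.05 without ST4, ST5, SN7 or SN9 for CL6101.Contig1 (0.54 to 0.75), without ST1, ST4, SN7 or SN8 for CL6101.Contig3 (-0.89 to -1.17), without ST4 or SN8 for CL6101.Contig2 (-0.96 and -0.95), and without ST4 or SN7 for Unigene11133 (-1.0 and -1.13).

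CAD, which makes the alcohols themselves, had 59 members, but only 20 of them passed the filter. Barley (*Hordeum*) was the genus of the best Nr match for 20 members, a palm for 17, and an oomycete or a green alga for 5 each. The sequences matched to barley did not exceed 8.12 FPKM, and 1 of them was tested. DESeq2 called 1 CAD member lower, Unigene17952, singled out after its values were seen. It is matched to barley and was listed at 6.66, 0.04 and 0.79 FPKM in trunking palms and in none of the non-trunking palms, so its level rests on ST1. Of the 20 tested members, 7 were higher and 0 lower at an unadjusted p under 0.05, against 5.43% and 4.43% of all Unigenes. The log2 fold changes of the 20 ran from -2.62 to 3.23 with a median of 0.54. Outside the members, 33 Unigenes carried the KO of CAD under other Swiss-Prot names. Their summed FPKM went the other way, at 119 to 141 in trunking and 80.3 to 108 in non-trunking palms. Of 8 tested, 4 were higher and 1 lower, against 5.43% and 4.43% of all Unigenes.

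The higher CAD members were those of clusters CL832 and CL9634 and 1 short single sequence. CL832.Contig3, matched to the CAD of ryegrass, stood at 30.7, 12.3 and 7.31 CPM in trunking and at 163, 126 and 182 CPM in non-trunking palms. All non-trunking palms were well above ST1, the highest of the trunking palms, at a log2 fold change of 3.23 (SE 0.56, edgeR adjusted p = 0.194). CL832.Contig2 and CL832.Contig4, matched to the CAD of maize, had log2 fold changes of 3.18 and 2.94, and CL832.Contig1 and CL832.Contig6, matched to that of ryegrass, 2.46 and 2.65. The edgeR adjusted p of these 4 contigs was 0.185 to 0.27. Summed over the cluster, CL832 stood at 126, 61.6 and 34.2 CPM in trunking palms and at 595, 554 and 575 CPM in non-trunking palms. The non-trunking palms were nearly level with each other while the trunking palms spread, and the log2 fold change of the sum was 2.96 (SE 0.49, edgeR adjusted p = 0.144). CL9634.Contig1, of 522 nt, stood at 12.5, 5.80 and 3.41 CPM against 52.4, 53.7 and 40.5 CPM, with the same order among the trunking palms and a log2 fold change of 2.75 (SE 0.48, edgeR adjusted p = 0.194). Unigene22717 was rare, with 2.40 ± 1.40 CPM (SD, n = 3) in non-trunking palms and a log2 fold change of 2.14, which was 1.65 with an unadjusted p over 0.05 without SN8.

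The CAD members matched to the probable CAD 1 of rice or *Arabidopsis* and to the probable CAD 6 of rice, relatives whose part in lignin is less clear, differed less. Of the 11 tested, 0 had an unadjusted p under 0.05, and their log2 fold changes ran from -0.11 to 0.79. Among the 4 tested that matched the probable CAD 1 of rice, all non-trunking palms lay above all trunking palms for 3, where 8.71% of all Unigenes did. CL2369.Contig2, the CAD member of highest mean FPKM, stood at 171, 71.2 and 191 CPM in trunking and 323, 206 and 134 CPM in non-trunking palms. The groups overlapped, with a log2 fold change of 0.61 (95% interval -0.53 to 1.75). The sum of cluster CL3912, with 8 contigs of this kind, had a log2 fold change of 0.33 (95% interval -0.16 to 0.82). Its groups did not overlap, at 238 to 250 CPM in trunking and 259 to 349 CPM in non-trunking palms. In the fit of clusters the single CAD sequence Unigene18499 was higher at an unadjusted p under 0.05 (log2 fold change 0.44, edgeR adjusted p = 0.427). There the single CAD sequence Unigene7980 stood at 5.77, 0.352 and 1.60 CPM against 0, 1.22 and 0 CPM, with a log2 fold change of -2.63 (95% interval -6.48 to 1.22). Unigene24586 stood at 0.743, 3.17 and 0.0552 CPM against 0, 0.663 and 0 CPM, with -2.53 (95% interval -6.44 to 1.37).

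**Figure D5:**
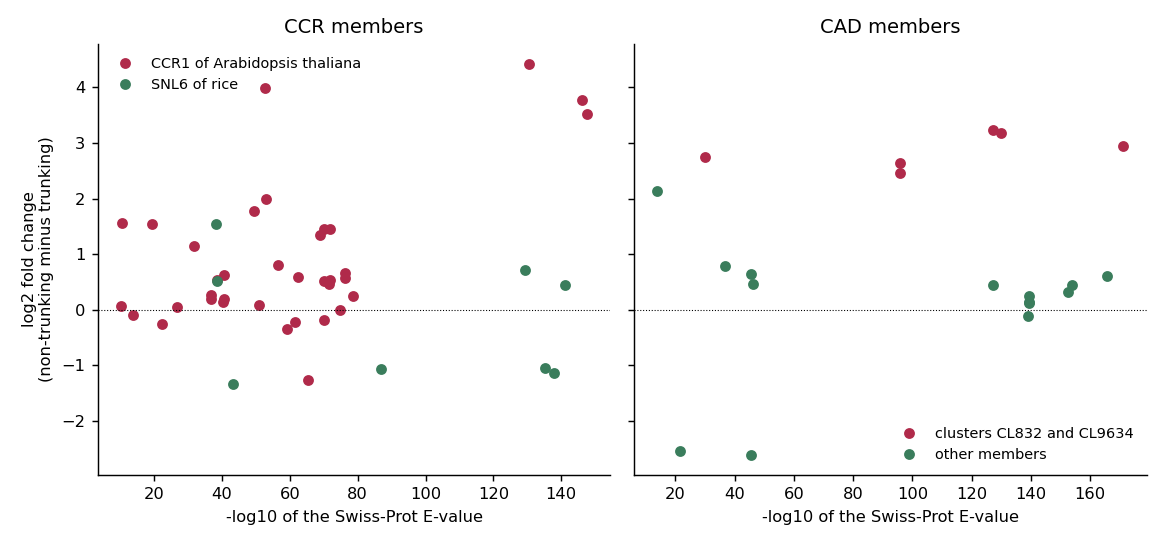
Log2 fold change of the tested CCR (left) and CAD (right) members against the strength of their Swiss-Prot match, as -log10 of the E-value; colours mark the matched entry for CCR and the cluster for CAD. The 3 close matches to CCR1 lie at 3.53 to 4.43, and the 6 points of clusters CL832 and CL9634 lie at 2.46 to 3.23. The point at 4.43 is Unigene19802, which passed the filter only through the non-trunking palms. The other close matches, at 3.53 and 3.77, are contigs of the same cluster, CL8093, and count as a single observation. CL832 and CL9634 hold higher CAD members named in the text, so their height here is not a separate result.

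The neighbouring steps of the pathway, taken by Swiss-Prot name, were read in the same fit, where 5.43% of all Unigenes were higher and 4.43% lower. Of 5 tested phenylalanine ammonia-lyase Unigenes, the entry to phenylpropanoids, 4 were higher and 0 lower at an unadjusted p under 0.05, with a median log2 fold change of 1.75. All 4 are contigs of cluster CL3659 and count as a single observation, and the cluster sum had a log2 fold change of 1.52 (SE 0.36, edgeR adjusted p = 0.232). Of 8 tested cinnamate 4-hydroxylase Unigenes 4 were higher and 0 lower (median 1.83), 3 of them contigs of cluster CL1983, whose sum had a log2 fold change of 1.97 (SE 0.34, edgeR adjusted p = 0.144). Of 6 tested Unigenes named 4-coumarate-CoA ligase, the enzyme that makes the substrate of HCT, 1 was higher and 0 lower (median 1.63). The higher one was Unigene16086 (3.51), and Unigene738 was at 0.14. CL4965.Contig1, CL4965.Contig2 and CL4965.Contig3 (1.73, 1.53 and 1.88) are contigs of 1 cluster and count as a single observation. Unigene3423 (0.03) had an Nr match to an acyl-activating enzyme and a KO other than that of the ligase. Downstream, 1 of 3 tested laccases, which oxidize monolignols in the wall, was higher (Laccase-24, Unigene25736, log2 fold change 3.13). The only secondary wall regulator that could be tested was Unigene4510, of 450 nt. Its Swiss-Prot match was MYB63, an activator of lignin genes in *Arabidopsis*, but its Nr match was named myb-related protein Zm1. It stood at 0.512, 0.610 and 0.165 CPM against 1.33, 3.01 and 1.19 CPM (log2 fold change 2.08, SE 0.67, edgeR adjusted p = 0.408).

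Markers of the leaf's cell types were read beside these results. The summed FPKM of 12 listed xylem and fibre markers was 25.2 to 28.9 in trunking and 24.7 to 34.8 in non-trunking palms, and 0 of the 7 tested had an unadjusted p under 0.05. The near-level sum joins markers that differed in direction. The 5 Unigenes of cellulose synthase A 4, a subunit for secondary walls, summed to 4.09 to 6.82 FPKM in trunking and 1.55 to 3.05 in non-trunking palms without overlap, with a median log2 fold change of -1.36 over the 3 tested. The 3 of cellulose synthase A 8, taken by that name from any species, summed to 7.57 to 10.01 and 7.36 to 18.7 and overlapped, with a median of 0.63 over the 2 tested. No Unigene was listed for the entries of cellulose synthase A 7, COBRA-like 4 and 5, fasciclin-like 11 and 12, xylem cysteine proteinase or IRX15. The sum of 52 mesophyll markers was 14997 to 28363 in trunking and 21402 to 34922 in non-trunking palms, with 3 of 48 tested higher and 0 lower. That of 34 epidermis and cuticle markers was 779 to 1002 and 571 to 829, with 3 of 27 higher and 2 lower. The shares over all Unigenes were 5.43% higher and 4.43% lower. The part of the makeup of the leaf in the levels of the members was not tested.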

How the data were processed

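Leaf RNA of 3 trunking and 3 non-trunking palms was sequenced, 1 library a palm, and grouped by the phenotype in the labels. The authors assembled the reads with Trinity and TGICL, mapped them with Bowtie2 and quantified them with RSEM. Tool versions and strand setting were not given in the sources used here, so reads of a Unigene and of an antisense one cannot be told apart. The authors deposited, per Unigene, an expected count (not normalized), an FPKM (scaled by length and library total) and annotation from 7 databases. A Unigene absent from a library's file was set to 0, and the lowest listed FPKM was 0.01.

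The files were joined with Python 3.11.15 and pandas 2.3.3, and figures drawn with Matplotlib 3.10.9. The counts were fitted, after rounding to whole numbers, over all Unigenes in R 4.3.3 with edgeR 4.0.16 (filterByExpr: 0.55 CPM in 3 libraries, or 10 counts, and 15 in total; TMM; glmQLFTest; Benjamini-Hochberg; threshold 0.05). TMM factors were 0.824 to 1.13. DESeq2 1.42.0 was run on the same counts, where 47004 adjusted p-values stayed empty, and limma 3.58.1 on log2(FPKM + 1) and log2(FPKM + 0.1). Other alternatives were library size alone, RLE factors, no filter, sums per cluster, each palm left out, members of at least 500 nt and members with the enzyme's own KO. The code was tested on simulated data. Intervals are at 95%.

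The members and lists were chosen with earlier results of these data known. Named were the 3 members of highest mean FPKM of each enzyme and every member with an unadjusted p under 0.05. The biological coefficient of variation common to all Unigenes tested was 0.497, so for well-counted Unigenes the spread between palms, not counting error, sets the precision. For members with few counts, such as Unigene20574 and Unigene19802, counting error also limits it. The p-values set the difference between the groups against the spread between palms within them, and they cannot tell phenotype from place. No genome or sequence was used here. The remaining 6 members, of 1 further enzyme, entered the fit and the counts over all members and are not reported here.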

Additional observations from a re-analysis of the deposited data

How the results depend on the processing

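No paired analysis was possible because the groups share no replicate number. At an unadjusted p under 0.05, the 6 lower members became 13 without the filter, 11 with DESeq2 and 3 with sums per cluster, where the 29 higher members became 16 clusters. DESeq2 gave 19 members an adjusted p under 0.05, where edgeR and limma gave 0. The CSE sum had a log2 ratio of 0.32, and of 1.88 over the members with the KO of CSE. With each palm left out in turn, higher members numbered 25 to 30, lower members 3 to 8, and the median log2 fold change was 0.38 to 0.50, with 0 adjusted calls. The log2 ratio of the sums was 1.51 to 2.21 for HCT, 0.23 to 0.51 for C3'H, 0.08 to 0.46 for CSE, 1.82 to 2.52 for CCoAOMT, -2.42 to -1.36 for F5H, 0.27 to 0.55 for CCR and 1.19 to 1.36 for CAD. The change of CL10342.Contig1, 0.00, became -0.048 with library size alone, -0.078 and -0.12 with limma at pseudocounts of 1 and 0.1, -0.62 per cluster, and -0.029, -0.11 and -0.42 without ST1, ST5 and SN8 (up to 0.19 as each palm was left out). Per cluster the change of CL523.Contig3 became -0.027 and that of CL6101.Contig1 -0.20, and without SN8 that of Unigene28347 became -0.17 and that of CL2579.Contig3 -0.19 (up to 0.83 and 0.43 as other palms were left out). The cause was not tested. Over all alternatives, the named members kept direction and side of the threshold in 499 cases, were weaker in 60, stronger in 2 and reversed in 11. Restricting the members to those with a palm Nr match, chosen after seeing the data, left 26 higher and 6 lower. Low counts limit Unigene20574, Unigene19802 and Unigene22717.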
